A study of Drosophila melanogaster with 8 samples.

Results

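Translation initiation and elongation factor genes were compared between cells that lack asense and control cells of the embryonic ventral nerve cord of Drosophila melanogaster. The members were the genes whose symbol in the probe annotation begins with eIF, eEF, EF1, EF2, Eif or Ef1, which gave 174 of 14569 probes and 45 of 13819 features, a feature being a gene or a probe without a single gene name. Of these 45 genes, 40 were measured in 4 or more of the 5 sample pairs and were tested, 39 of them in each of the 5. Mutant cells carried ase1 on both chromosomes (ase1/ase1). The control cells were ase1/FM7-KrGFP, so each control carried the allele over a marked balancer chromosome and was heterozygous. Both came from embryos at stage 11 that developed at 25 °C, and each sample was a mixture of neuroblasts and ganglion mother cells made from 50 to 100 cells. The 8 two-colour arrays form 5 mutant and control pairs numbered 1, 3, 4, 5 and 6, with the mutant in Cy5 in pairs 1 and 3 and in Cy3 in pairs 4, 5 and 6. For pairs 1, 4 and 5, arrays a and b carry the same source names, so they were read as repeat arrays of 1 pair and averaged to 1 replicate. The series description instead counts 8 samples of each genotype, so arrays a and b could hold separate samples, and the labels do not settle which reading holds. The labels do not state whether different pairs are different embryos, so the p-values cover only the variation among these 5 pairs, which may be technical.

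Initiation factors bring the ribosome to the start codon of a messenger RNA. The eIF4 group binds the cap and unwinds the leader, eIF3 is a scaffold of many subunits on the small ribosomal subunit, and eIF2 delivers the initiator transfer RNA and is recharged with GTP by its exchange factor eIF2B. Elongation factors of the eEF1 group then deliver aminoacyl transfer RNAs. Neuroblasts are neural stem cells, and cell growth depends on protein synthesis. Asense is a proneural transcription factor of neuroblasts, and mutant and control were set side by side to find transcripts that differ without it.

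Values are log ratios read as log2, and neither base nor direction is stated in the labels or the table. Asense itself (ase) had log2 ratios of -5.29, -6.50, -6.37, -6.11 and -6.00 in pairs 1, 3, 4, 5 and 6, so mutant over control is the likely direction, and signs follow it. Of the 7 neuroblast markers all were tested and 3 fell (ase, mira and klu), and those other than ase ran from klu at -1.21 to sna at 0.52. Markers of ganglion mother cells and neurons fell for 3 of 4 tested genes and glial markers for 3 of 3. Hemocyte markers fell for 2 of 3 and mesoderm markers for 1 of 2, with 0 higher in any of these lists. A fall here is a limma adjusted p below 0.05, and elav (0.0449) and Hml (0.0493) were near that threshold. Over all features, 11.3% fell and 6.97% rose. The part of these marker shifts in the results below was not tested. The other lists gave 1 tested gene each, grh (-0.68) of the epidermis and Yp2 (-0.26) of yolk and fat body, and neither passed, while Fbp1, Lsp2 and shg were measured in 0 pairs. In such mixtures, fewer cells of a type and less RNA per cell cannot be told apart.

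Among the 40 translation factor genes tested, 4 rose in the mutant cells and 5 fell in the limma fit over all 8295 features, where a call is a Benjamini-Hochberg adjusted p below 0.05. The genes that rose were eEF1gamma, eIF3h, eIF3i and eIF6, and those that fell were eIF3f2, eIF4E1, eIF4B, eIF2Bepsilon and eEFSec. These 9 genes are 22.5% of the members, close to the 18.3% of all features called (6.97% higher and 11.3% lower), so the share of calls does not set the group apart. By role, the share called was 21.4% of 14 eIF3 genes, 22.2% of 9 eIF4 group genes and 16.7% of 6 eIF2 and eIF2B genes. It was 40% of 5 elongation genes, 33.3% of 3 subunit joining genes and 0% of 3 start codon genes. Each role holds few genes, and no role was tested as a set. The changes were small, from 1.40-fold for eIF4B to 1.98-fold for eIF3f2. The median over the 40 genes was 0.05 and that over all features was -0.07, and 23 of the 40 means lay above 0 against 42.6% of all features. A value of the same sign in every measured pair was found for 9 genes above 0 and 6 below 0, next to 13.1% and 21.3% of all features. At an unadjusted p below 0.05 the count was 14 of 40, next to 36.1% of all features. After median centring of the arrays, 6 members were higher and 3 lower (all features 9.7% and 8.52%). With array a of each pair alone, limma called 0 of 40 (9 at an unadjusted p below 0.05), while 6.06% of all features were called.

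**Figure D1:**
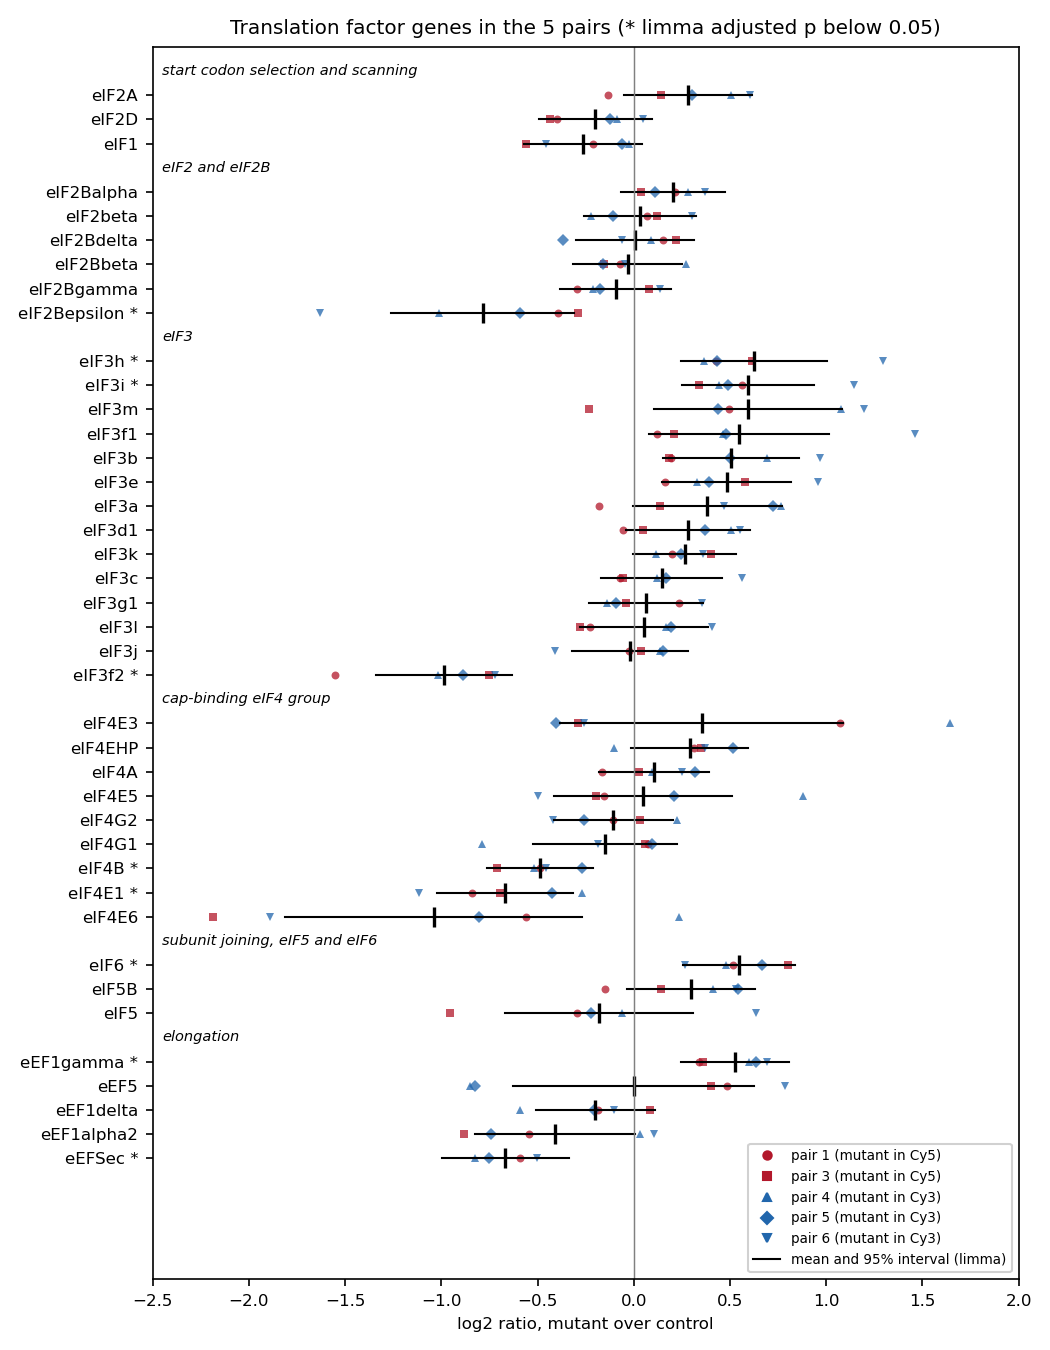
Log2 ratio of mutant over control (horizontal axis) for the 40 tested translation factor genes, grouped by role, with a symbol for each of the 5 pairs coloured by the dye of the mutant sample, and the limma mean with its 95% interval in black. The 9 genes with an asterisk passed the test, 4 above 0 and 5 below, and 12 of the 14 eIF3 subunit means lie above 0.

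Among the factors of start codon selection and scanning, limma called 0 of 3 (0 at an unadjusted p below 0.05). eIF1, which guards the choice of start codon, had log2 ratios of -0.21, -0.56, -0.03, -0.06 and -0.46 in pairs 1, 3, 4, 5 and 6 (mean -0.26 ± 0.24, SD, n = 5, limma adjusted p = 0.190). Each of these lay below 0, though pairs 4 and 5 were near it. eIF2A, a factor of alternative initiation, had -0.14, 0.14, 0.51, 0.30 and 0.61 in the same order (mean 0.28 ± 0.30, limma adjusted p = 0.193). Its lowest value was in pair 1. eIF2D, which can deliver transfer RNA without GTP, had a mean of -0.20 with a 95% interval of -0.50 to 0.09.

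Of the 6 genes of eIF2 and eIF2B, 1 fell and 5 did not pass. eIF2Bepsilon, the catalytic subunit of the exchange factor, had log2 ratios of -0.39, -0.29, -1.01, -0.59 and -1.63 in pairs 1, 3, 4, 5 and 6. It was below 0 in each pair, and the 3 pairs with the mutant in Cy3 lay below the 2 with the mutant in Cy5. The mean was -0.79 ± 0.55 (SD, n = 5, limma adjusted p = 0.0361). eIF2Balpha, a regulatory subunit, had 0.22, 0.04, 0.28, 0.11 and 0.37 in the same order, above 0 in each pair, and did not pass (mean 0.20, 95% interval -0.07 to 0.47). The other eIF2B subunits had means of 0.01 for eIF2Bdelta, -0.03 for eIF2Bbeta and -0.09 for eIF2Bgamma. For eIF2Bdelta the 95% interval ran from -0.30 to 0.31, and for eIF2Bbeta from -0.32 to 0.25. eIF2beta, a subunit of eIF2 itself, had a mean of 0.03 (95% interval -0.26 to 0.33). The call of eIF2Bepsilon was lost after centring (adjusted p = 0.0504) and without pair 1, 4, 5 or 6.

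Subunits of eIF3 made up 14 of the tested genes, of which 2 rose, 1 fell and 11 did not pass. eIF3i, a WD-repeat subunit, had log2 ratios of 0.56, 0.34, 0.44, 0.49 and 1.14 in pairs 1, 3, 4, 5 and 6. Its single arrays ran from 0.34 on array 3a to 1.14 on array 6a, so the values lay above 0 on each of the 8 arrays. The mean was 0.59 ± 0.32 (SD, n = 5, limma adjusted p = 0.0309). eIF3h, a subunit with an MPN domain, had 0.43, 0.61, 0.36, 0.43 and 1.29 in the same order (mean 0.63 ± 0.39, limma adjusted p = 0.0362). Pair 6 stood above the others for both genes, and eIF3h was below 0 on 1 array (4a, -0.23). Their calls were lost with a dye term, without pair 1, 4 or 5 and, for eIF3h, without pair 3.

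The other eIF3 subunits had mostly positive means that did not pass. eIF3e (0.48, limma adjusted p = 0.0543) and eIF3b (0.51, adjusted p = 0.0547) were above 0 in each of the 5 pairs, and both passed after centring. eIF3m (0.59, adjusted p = 0.0876), eIF3f1 (0.55, 0.0946) and eIF3a (0.38, 0.143), the large scaffold subunit, came next. eIF3d1 (0.28) and eIF3k (0.26) followed, the latter above 0 in each pair, and the means of eIF3c (0.14), eIF3g1 (0.06), eIF3l (0.05) and eIF3j (-0.02) lay near 0. Means above 0 were found for 12 of the 14 subunits, with a median of 0.33, next to 42.6% of all features. That number was 13 after centring and 11 after scaling of the arrays, 11 with array a alone, 11 or 12 when a pair was left out, and 3 with the table read as Cy5 over Cy3. It describes the list, and no test was made on it.

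Pair 6 held the highest value of 11 of the 14 eIF3 subunits, while 29.8% of all features measured in 5 pairs had theirs in that pair. The median absolute deviation of all measured probes was 0.45 on array 6a and 0.52 on 4b, against 0.33 to 0.43 on the others. By pair, the eIF3 median was 0.14, 0.09, 0.35, 0.38 and 0.56 in pairs 1, 3, 4, 5 and 6, when the median of all features was between -0.13 and -0.04. For 6 of the 14 subunits (eIF3a, eIF3b, eIF3c, eIF3d1, eIF3f1 and eIF3l) the 3 pairs with the mutant in Cy3 lay above both pairs with the mutant in Cy5, a pattern of 9.22% of all features. Over all members it held for 12 of 39 genes. The smallest dye p of a member was 0.0352, for eIF3a, and its adjusted p was 0.948 in limma. Different samples were hybridised in the 2 orientations, so dye and pair cannot be told apart here.

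A pair of genes encodes the eIF3f subunit, and they differed in sign. eIF3f2 had the smallest p of any member, with log2 ratios of -1.55, -0.75, -1.02, -0.89 and -0.72 in pairs 1, 3, 4, 5 and 6. Every pair was below 0, and array 1a gave no value. The mean was -0.99 ± 0.34 (SD, n = 5, limma adjusted p = 6.925e-03), and the call held in each fit that left out a pair but not with array a alone (adjusted p = 0.0681). The paralog eIF3f1 had 0.12, 0.21, 0.47, 0.48 and 1.46 in the same order. The values of the 2 genes do not overlap in any pair. Of 2 more eIF3 paralogs, eIF3d2 was measured on 0 arrays and eIF3g2 on 1 (array 5b, 2.51), so neither was tested.

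Within pairs 4 and 5, arrays a and b differed in the eIF3 genes, and these differences lie between separate samples if the series description is right. In pair 4, array b was above array a for 12 of 14 eIF3 subunits, with a median difference (b minus a) of 0.83, while it was above for 45.4% of all features with a median of -0.09. eIF3a was at 0.15 on array 4a and 1.38 on array 4b, and eIF3b at 0.19 and 1.20. In pair 5 the count was 9 of 14 with a median difference of 0.33, against 47.6% of all features with a median of -0.04. In pair 1 it was 6 of 12 with a median of -0.01, against 47.2% of all features. Array b was above array a for 24 of 39 members in pair 4 (median 0.26) and 24 of 38 in pair 5 (median 0.30). The difference in pair 5 was thus not particular to eIF3. Over all members, 10 of 39 were higher by at least 1 on array 4b than on array 4a, against 9.85% of all features, and 6 of 38 in pair 5, against 7.66%. Array b was thus the higher source of eIF3 values in pairs 4 and 5 and not in pair 1. The median absolute deviation of all measured probes was 0.33 on array 4a and 0.52 on 4b, and 0.37 on 5a and 0.43 on 5b. In pair 1 it was 0.35 on array 1a and 0.33 on 1b. The part of this spread in the eIF3 values, and the cause of either, was not tested.

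**Figure D2:**
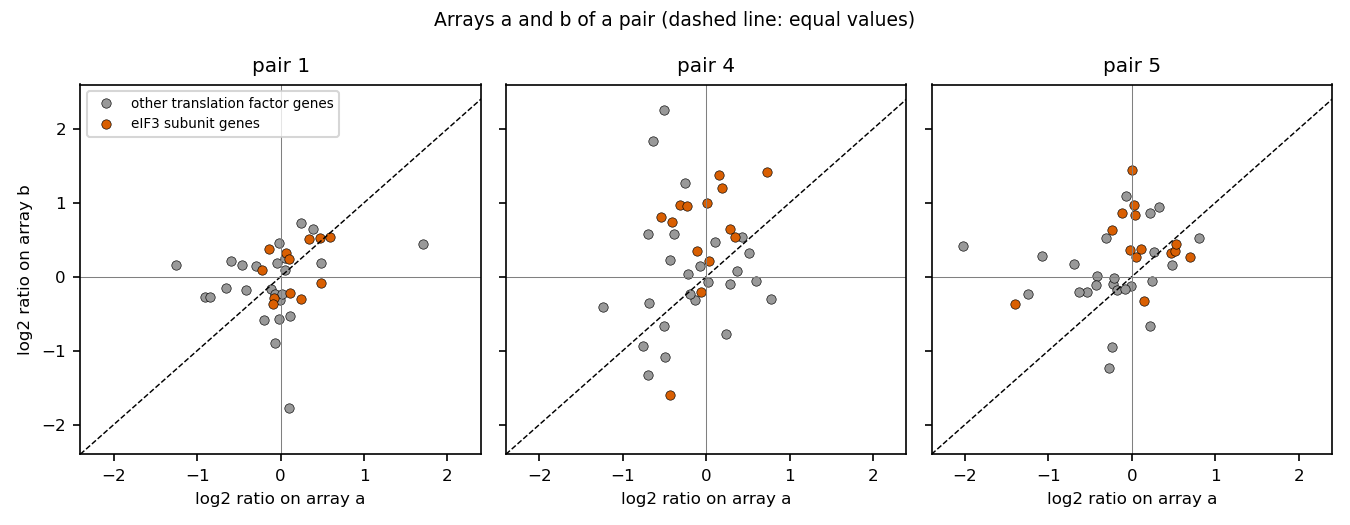
Log2 ratio on array b (vertical axis) against array a (horizontal axis) of pairs 1, 4 and 5 for each translation factor gene measured on both arrays, with eIF3 subunit genes in orange, others in grey and a dashed line of equal values. In pair 4, 12 of 14 eIF3 points lie above the line, with a median difference of 0.83.

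The cap-binding eIF4 group had 9 tested genes, of which 2 fell, 0 rose and 7 did not pass. eIF4E1, the main cap-binding protein, had log2 ratios of -0.84, -0.70, -0.27, -0.42 and -1.12 in pairs 1, 3, 4, 5 and 6. Every pair was below 0, but arrays 1a (0.10) and 4a (0.24) lay above it. The mean was -0.67 ± 0.34 (SD, n = 5, limma adjusted p = 0.0229). eIF4B, a cofactor of the helicase, had -0.49, -0.71, -0.52, -0.27 and -0.46 in the same order (mean -0.49 ± 0.16, limma adjusted p = 0.0295) and was below 0 on each of the 8 arrays. The call of eIF4E1 was lost without pair 1, 3 or 5, and that of eIF4B after centring, with array b, and without pair 1, 3, 4 or 5.

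Each of these genes is the mean of 2 probes that did not give the same value. For eIF4E1, 1 probe had -1.93, -1.34, -0.64, -0.89 and -1.44 in the 5 pairs (mean -1.25, limma adjusted p = 6.827e-03 among probes). The other probe had 0.26, -0.06, 0.10, 0.04 and -0.80 (mean -0.09, adjusted p = 0.729), so the fall of eIF4E1 rests on the first probe. For eIF4B the probe means were -0.88 (adjusted p = 8.841e-03) and -0.21 (adjusted p = 0.328). In pair 6 the weaker eIF4B probe was at 0.10 and the stronger at -1.01. Which transcripts each probe detects was not examined, since probe sequences were not used here.

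Other eIF4E proteins and the scaffold genes did not pass. eIF4E6, a paralog of eIF4E1, had -0.56, -2.19, 0.24, -0.80 and -1.89 (mean -1.04 ± 0.99, SD, n = 5, limma adjusted p = 0.0663), a large mean with pair 4 on the other side of 0. It passed the test when pair 4 was left out. eIF4E3 had 1.07, -0.29, 1.64, -0.40 and -0.26, and eIF4E5 had -0.16, -0.20, 0.88, 0.21 and -0.50, both with pairs on either side of 0. eIF4EHP, which binds the cap without recruiting the scaffold and so represses translation, had 0.32, 0.35, -0.10, 0.51 and 0.37 (mean 0.29, adjusted p = 0.152). The scaffold genes eIF4G1 (-0.15, 95% interval -0.52 to 0.22) and eIF4G2 (-0.11, -0.42 to 0.20) had intervals on both sides of 0. eIF4E4 was measured in 2 pairs (-0.41 in pair 1 and -0.54 in pair 4), and eIF4E7 and eIF4H2 in 0.

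The helicase gene eIF4A stood out in the number of its probes, 128 against at most 2 for any other member. Its gene mean did not pass, with log2 ratios of -0.16, 0.03, 0.09, 0.32 and 0.25 in pairs 1, 3, 4, 5 and 6 (mean 0.10 ± 0.19, SD, n = 5, limma adjusted p = 0.576). By their identifiers, 126 of the probes form 42 groups of 3 that share a stem. Within a triplet the probes gave nearly the same value, with an SD of 0.0528 to 0.0842 depending on the array. Between triplets the SD was larger, from 0.182 on array 4a to 0.683 on array 4b. On array 4b the 126 probes ran from -0.75 to 1.89 with a median of 0.53, whereas on array 4a, with the same source names, they ran from -0.72 to 0.06 with a median of -0.40.

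The triplets had a partly shared order on the arrays. Across the 42 triplets, the correlation between 2 arrays was above 0 for 26 of 28 couples, with a median of 0.542 and a range from -0.377 to 0.886. On each array the triplets share dye and sample, so they are not replicates of the mutant or control. The cause of the shared order was not tested. Averaged over pairs, 24 triplets were above 0 and 18 below, from -0.46 to 0.55. Tested as single probes, 6 of the 115 measured in at least 4 pairs were called higher and 1 lower, next to 7.12% and 11.6% of all probes. The 2 eIF4A probes outside the triplets had means of -0.08 and -0.25 (limma adjusted p = 0.665 and 0.233). Most other members rest on 1 probe, for which no such spread between probes can be measured. Whether the triplets hold the same sequence, and whether their place on the array moves with their value, was not tested.

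**Figure D3:**
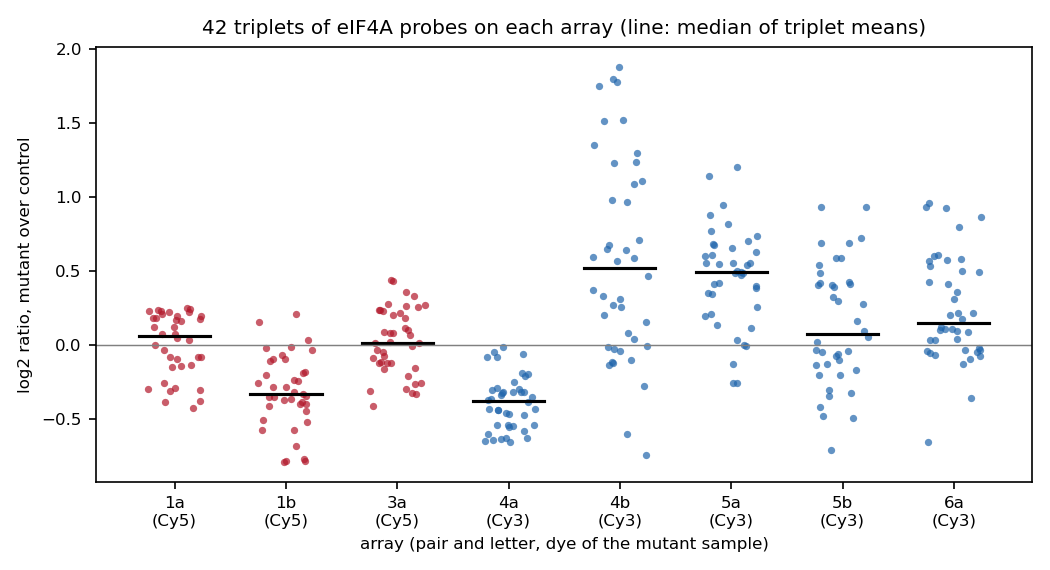
Log2 ratio of mutant over control (vertical axis) of the 42 eIF4A probe triplets on each of the 8 arrays (horizontal axis), with a point for the mean of a triplet, a line at the median, and colour for the dye of the mutant sample. On array 4b the triplets spread with an SD of 0.683, and on array 4a with an SD of 0.182.

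Among 3 factors of subunit joining, eIF6 rose and 2 did not pass. eIF6 binds the large ribosomal subunit and keeps it from joining the small one too early. Its log2 ratios were 0.52, 0.80, 0.48, 0.67 and 0.26 in pairs 1, 3, 4, 5 and 6, and its 8 arrays ran from 0.26 on array 6a to 0.81 on array 5a. It was above 0 in each, and pair 6 was here the lowest. The mean was 0.55 ± 0.20 (SD, n = 5, limma adjusted p = 0.0242), and the call was lost without pair 1, 3, 4 or 5. eIF5B, the GTPase of subunit joining, had a mean of 0.30 (95% interval -0.04 to 0.63). eIF5, which activates GTP hydrolysis by eIF2, had -0.30, -0.95, -0.06, -0.22 and 0.63 in the same order, with pair 6 alone above 0.

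Of 5 elongation factor genes, 1 rose, 1 fell and 3 did not pass. eEF1gamma, a subunit of the exchange factor of eEF1, had log2 ratios of 0.34, 0.36, 0.60, 0.63 and 0.69 in pairs 1, 3, 4, 5 and 6. The pairs were close to each other, but in pair 4 array a was at -0.64 and array b at 1.84. The mean was 0.52 ± 0.17 (SD, n = 5, limma adjusted p = 0.0236). With array a of each pair it was 0.24 (adjusted p = 0.509), and the call was also lost without pair 1, 4 or 5 and in a fit of single arrays blocked by pair. eEFSec, the elongation factor for selenocysteine, had -0.59, -0.83, -0.75 and -0.51 in pairs 1, 4, 5 and 6 and no value in pair 3. It was below 0 on each of the 7 arrays that measured it (mean -0.67 ± 0.15, n = 4, limma adjusted p = 0.0209). Its call was lost with a dye term, with array b, and without pair 1, 4 or 5.

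The remaining elongation genes went in different directions. eEF1delta, another exchange factor subunit, had a mean of -0.20 (95% interval -0.51 to 0.11). eEF1alpha2, an isoform of the factor that carries aminoacyl transfer RNA, had -0.55, -0.88, 0.03, -0.74 and 0.10 (mean -0.41, adjusted p = 0.145). eEF5, the hypusine-containing factor also called eIF5A, split by pair, with 0.49, 0.40 and 0.78 in pairs 1, 3 and 6 and -0.85 and -0.83 in pairs 4 and 5. Its mean was 0.00 with a 95% interval of -0.63 to 0.62, so these arrays fix its average level poorly. Of the genes with current symbols of this kind, 7 had no probe under the rule (eEF1alpha1, eEF1beta, eEF2, eIF1A, eIF2alpha, eIF2gamma and eIF4H1) and were not analysed here.

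Genes that act on these factors were read from 6 lists. Of 12 tested regulators of the cap-binding complex, 4 rose, 2 fell and 6 did not pass (median -0.17, against -0.07 over all features, of which 6.97% rose and 11.3% fell). mextli (mxt), a scaffold protein that binds eIF4E, had log2 ratios of 1.13, 1.75, 1.68, 1.11 and 1.34 in pairs 1, 3, 4, 5 and 6 (mean 1.40 ± 0.30, SD, n = 5, limma adjusted p = 1.480e-03). It lay above 1 in each pair, and its call held in each of the 20 other settings counted. These leave out the reading as Cy5 over Cy3 and the fit of each probe on its own. Among them, the threshold of 0.1 could not lose a call, and the fit without the eIF4A triplets hardly could. Pdcd4, which in mammals inhibits the eIF4A helicase, had 0.67, 0.76, 1.19, 0.89 and 2.41 (mean 1.18, adjusted p = 0.0185), with pair 6 the highest. Paip2 (0.79, adjusted p = 0.0127), an inhibitor of the poly(A)-binding protein, and the cold-shock domain gene Unr (0.59, 0.0258) rose as well. The eIF4E-binding repressor gene cup (-0.56, adjusted p = 0.0202) and the fragile X gene Fmr1 (-0.55, 0.0311) fell. Of the 20 other settings, Fmr1 lost its call in 8, Unr in 7, cup in 6, Pdcd4 in 5 and Paip2 in 3. The poly(A)-binding protein gene pAbp (-0.11) and the eIF4E kinase gene Lk6 (0.09) did not pass.

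Of 11 tested genes of TOR and insulin signalling, 4 rose, 1 fell and 6 did not pass, next to 6.97% and 11.3% of all features, with a median of 0.40 against -0.07. S6k, the kinase of ribosomal protein S6, had log2 ratios of 0.70, 0.19, 0.98, 1.01 and 0.98 in pairs 1, 3, 4, 5 and 6 (mean 0.77 ± 0.35, SD, n = 5, limma adjusted p = 0.0156). Pair 3 was the lowest. The insulin receptor gene InR had 0.85, 0.74, 0.91, 0.69 and 0.25 (mean 0.69, adjusted p = 0.0150). REPTOR (1.40, adjusted p = 0.0134), a transcription factor held in check by TOR complex 1, and Tsc1 (0.63, 0.0380), part of a complex that restrains TOR, rose too. Lst8, a subunit of the TOR complexes, fell with -0.41, -0.62, -0.39, -0.61 and -1.43 (mean -0.69, adjusted p = 0.0319). Of the 20 other settings, Tsc1 lost its call in 9, among them the dye term, array b and each fit without 1 pair. Lst8 lost its call in 8, InR and S6k in 5 each and REPTOR in 2.

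The 4 other lists held 2 calls. Over all features, limma called 18.3% (6.97% higher and 11.3% lower), and 42.6% had a mean above 0, with a median of -0.07. An unadjusted p below 0.05 was found for 36.1% of all features. Of 9 mitochondrial translation factors the ribosome recycling factor gene mRRF2 rose (0.91 ± 0.46, SD, n = 5, limma adjusted p = 0.0155), 0 fell and 8 had means above 0 (median 0.29). Of 13 helicase genes related to eIF4A, Rm62 fell (-0.81 ± 0.24, adjusted p = 8.235e-03), 0 rose and 1 had a mean above 0 (median -0.25). Of 8 genes of the eIF2 kinases and the stress response limma called 0 (3 at an unadjusted p below 0.05), with PPP1R15 (0.37, adjusted p = 0.0670) and Hsc70-3 (0.36) having the smallest p, and the eIF2 kinase genes Gcn2 (-0.14) and PEK (-0.06) near 0. Of 11 termination and recycling genes limma called 0 (3 at an unadjusted p below 0.05), with HBS1 (0.54, adjusted p = 0.0801) and Upf2 (0.39) having the smallest p and the release factors eRF1 (0.10) and eRF3 (0.14) near 0. Of the 20 other settings, mRRF2 lost its call in 3 and Rm62 in 1. With the lists of cap-binding regulators and of TOR and insulin signalling included, 64 of 89 listed genes were tested.

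**Figure D4:**
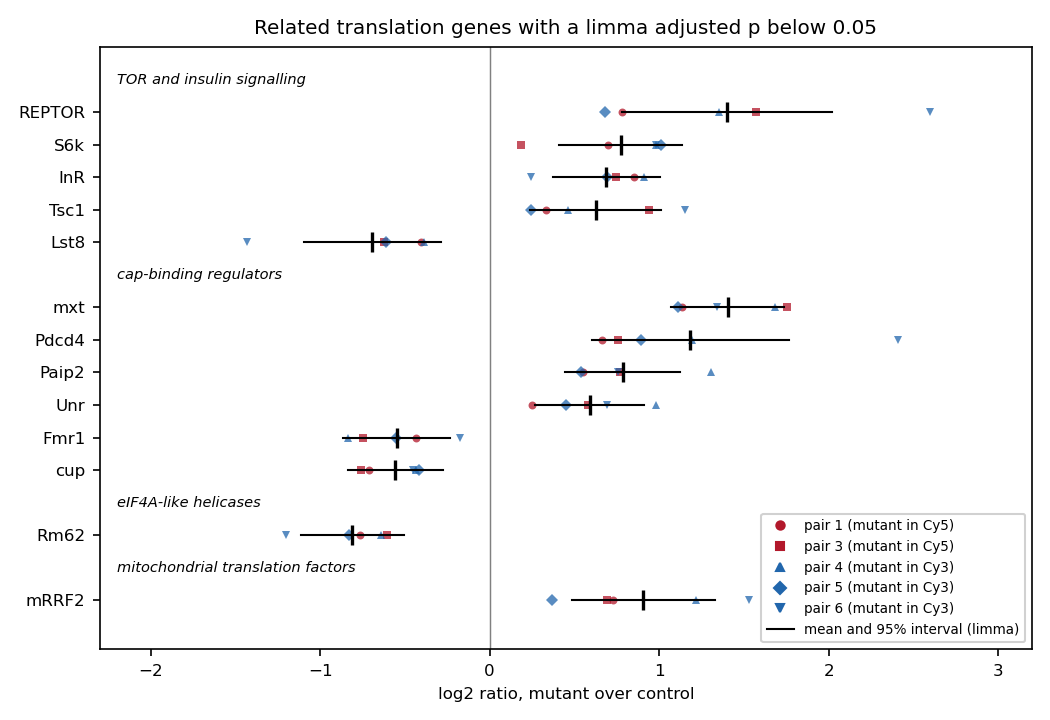
Log2 ratio of mutant over control (horizontal axis) for the 13 genes of the related lists past the limma test, with a symbol for each of the 5 pairs coloured by the dye of the mutant sample and the mean with its 95% interval in black. The values of mxt lie between 1.11 and 1.75, and those of Pdcd4 and REPTOR are highest in pair 6.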

How the data were processed

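The authors deposited a table of 2-colour log ratios, read here as log2, for 8 arrays and 14569 probes. Per the labels' protocols, RNA was reverse transcribed, tailed, amplified by PCR and labelled with Cy3 or Cy5. How these were normalized, centred or scaled is not given, nor is the log base. An exact 0 was taken as not measured, which left 8200 to 9276 probes per array; precision is limited by the small number of arrays. Probes were named through the platform annotation and current symbols looked up in RefSeq genes (assembly Release 6 plus ISO1 MT; 12012 of 12658 probes with 1 symbol matched by gene identifier, 107 by accession). The probes of a gene were averaged on each array, then arrays a and b of a pair. The mean over pairs was tested against 0, two-sided, across all genes and unnamed probes with a value in at least 4 pairs, using limma 3.58.1 (lmFit, eBayes; R 4.3.3) with Benjamini-Hochberg adjustment, the source of every adjusted p given. The fit was tested on simulated data.

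The genes, the lists of related genes and the alternatives were chosen with earlier results of these data known. The rule for named genes gave pair values for each member past the test, for the 2 smallest p of a role with no call and for paralogs, and, of the related lists, every gene past the test or the 2 smallest p; other members and list genes are named as values, chosen after these were seen. The alternatives changed direction, dye term, repeat arrays, centring, scaling, zeros, missing values, probes, weights, prior, threshold and pairs. A fit without the 126 eIF4A probes in triplets was added after the data were seen.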

Additional observations from a re-analysis of the deposited data

Results flagged for a closer look

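For 5 genes, 1 of the 5 pairs was separated from the rest by most of the range of values. Pair 6 was high for eIF3f1 (1.46, with the nearest pair at 0.48), eIF3h (1.29, nearest 0.61) and eIF3i (1.14, nearest 0.56), and low for Lst8 (-1.43, nearest -0.62). Pair 4 was high for eIF2Bbeta (0.27, nearest -0.05). About 1 in 20 genes would be picked out by chance, or 2.65 of the 53 examined.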

How the results depend on the processing

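As reported, limma called 4 members higher, 5 lower, 1517 features and 13 related genes. With a dye term 2 members were higher. With array a alone the counts were 0, 0, 474 and 5, and with exact zeros kept 1, 1, 345 and 3. Array b, centring, and features measured on all 8 arrays each gave 6 members higher and 3 lower. In the last of these, eIF3f2 and eEFSec were not tested, since each had values on 7 arrays. The related genes numbered 22 with single arrays blocked by pair (a random replicate block, correlation -0.2017) and 20 with array weights. At an adjusted p below 0.01 the counts were 0, 1, 372 and 2, and below 0.1 they were 8 higher, 2490 features and 22 related genes. Leaving out 1 pair gave 0 to 4 members higher, 1 to 4 lower, 597 to 1309 features and 4 to 14 related genes, with 0 members higher without pair 1, 4 or 5. The eIF4A triplets belong to 1 feature that was not called, so leaving them out could hardly move these counts, and none moved. The mean of eIF4A itself changed sign, from 0.10 to -0.16 (limma adjusted p = 0.37). The cause of these differences was not tested.

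With the table read as Cy5 over Cy3, limma called 0 members, 0 features and 0 related genes (0 members and 117 features at an unadjusted p below 0.05). That reading turns the sign of pairs 4, 5 and 6 only. It would put ase below 0 in pairs 1 and 3 and above 0 in pairs 4, 5 and 6, although the mutant was ase1/ase1 in each. Among the genes called as reported, these means changed sign: ase 1.34, eEF1gamma -0.25, eEFSec 0.37, eIF2Bepsilon 0.51, eIF3f2 0.065, eIF3h -0.21, eIF3i -0.23, eIF4B 0.00995, eIF4E1 0.054, eIF6 -0.018, Fmr1 0.077, InR -0.051, Lst8 0.28, mRRF2 -0.34, mxt -0.25, Paip2 -0.26, Pdcd4 -0.61, REPTOR -0.46, Rm62 0.26, S6k -0.42, Tsc1 -0.12 and Unr -0.26. Some members that were not called changed sign too, such as eIF3m (0.59 to -0.49) and eIF4G1 (-0.15 to 0.20). Every fit used ratios within a mutant and control pair, so pairing of mutant with control was part of each.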
